A study of Mus musculus with 24 samples.

Results

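Mitochondrial ribosomal proteins are encoded in the nucleus and build the ribosome that works inside mitochondria. Their genes were taken by symbol, Mrpl or Mrps followed by a number, among the genes listed in all 4 deposited tables. The rule gave 79 of 14014 genes, 50 with an Mrpl symbol for the large subunit and 29 with an Mrps symbol for the small subunit. The rule used no measured value other than being listed. The same 79 were found in every table.

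The samples were cortex from male mice aged 3 to 4 months, all of them operated on to block the middle cerebral artery for 1 h with a filament and killed after 1 day of reperfusion. Each animal was either wild type (WT) or a ciRS-7 knockout (KO), and the labels give the strain C57BL/6N-Cdr1asem1Nikr for both genotypes. CiRS-7, also called Cdr1as, is a circular RNA of neurons with many sites for the microRNA miR-7. Samples carry the mark CL or PI, which the labels do not write out. The 24 libraries made 4 groups of 6, from CL or PI cortex of WT or KO animals. By the titles, a CL and a PI library with the same number came from 1 animal, while WT and KO animals were different mice. No group lacked the surgery, so CL is the only comparison tissue within a genotype.

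The mitochondrial ribosome translates the few messenger RNAs of the mitochondrial genome, which encode core subunits of the respiratory chain and of ATP synthase. Its RNAs are mitochondrial transcripts, whereas its proteins are made in the cytosol and imported. Some of these proteins have counterparts in the bacterial ribosome, and others were gained during the evolution of mitochondria. Neurons depend on mitochondrial ATP, and ischemia deprives mitochondria of oxygen.

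Values were log2 CPM, read counts scaled to the size of the library, in 1 table for each pair of groups compared. In each group, the bottom 2 and the top 2 of its 6 values were identical for every gene, set to the group's quartiles, so the outermost animal at each end cannot be read back. Levels below are trimmed means of the 4 recoverable values ± SE (n = 6 libraries), and ranges are of the deposited values, which understate the spread. A gene was called when its adjusted p was under 0.05 in a moderated trimmed-mean test over all genes of the table, and every adjusted p below is from that test unless another is named. The step between low values gave an effective depth of 3.75 to 10.5 M reads per library. The library with the lowest depth, CL KO replicate 6, held a middle value not set to a quartile in 10.6% of genes and in 4 of the 79. The mean of this share over the 6 libraries of its group was 33.3% of genes. The next lowest share was 19.4% of genes, in PI WT replicate 4. Counting error alone puts the floor, taken as 3 reads, at 0.286 to 0.800 CPM depending on the library. All 79 genes lay above it in all groups, the lowest trimmed mean being Mrpl23 at 1.28 log2 CPM and the highest Mrpl3 at 6.04.

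Per length of the main annotated transcript, the genes spanned more than an order of magnitude in CL WT. Mrpl41 stood highest at 34.9 CPM per kilobase, followed by Mrpl30 at 34.4, Mrpl20 at 33.5 and Mrps33 at 31.9. Mrps16 stood lowest at 2.47 CPM per kilobase, and Mrpl17 was next at 2.5. The median of the large subunit was 9.46 CPM per kilobase and that of the small subunit 10.3. These genes have short transcripts, with a median of 1302 bases (418 to 7300) against 3210 bases over all listed coding genes. They lie on 17 chromosomes, so no single region carries the group.

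The first comparison asked how PI cortex differed from CL cortex within WT animals. The genes as a group hardly differed: 46 of 79 were higher in PI and 33 lower, with a median log2 fold change of 0.02 and a range of -0.30 to 0.63. Over all 14489 genes the median was 0.01, and 52.3% were higher. Of the 79, 1 was called, Mrps6, which was higher in PI, where 10.6% of all genes were called (5.20% higher and 5.40% lower). An unadjusted p under 0.05 was found for 2 genes that were higher and 2 that were lower, against 23.9% of all genes (11.9% higher and 12.1% lower). Deposited values of PI and CL did not overlap for 9 genes that were higher and 4 that were lower, where the background was 16.5% and 16.3% of all genes.

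Mrps6 encodes bS6m, a small-subunit protein with a bacterial counterpart. In WT its deposited values ran from 3.64 to 3.96 log2 CPM in PI (median 3.84) and from 3.04 to 3.29 in CL (median 3.22). All 6 deposited PI values were above all 6 deposited CL values. The trimmed means were 3.81 ± 0.11 and 3.18 ± 0.09 (SE, n = 6), a log2 fold change of 0.63 (SE 0.14, adjusted p = 0.00952). In KO the values ran from 3.81 to 4.15 in PI (median 3.92) and from 2.95 to 3.24 in CL (median 3.11). Again the deposited values did not overlap, and the change was 0.86 (SE 0.15, adjusted p = 0.00392). The difference between the change in KO and that in WT was 0.23 (SE 0.21, adjusted p = 0.992), within its error.

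The position of Mrps6 bears on how these reads can be read. In GRCm38 with GENCODE M21 it lies at chr16:92058270-92112227 on the plus strand (ENSMUSG00000039680.10), with 5 annotated exons. Slc5a3, the gene of a sodium-coupled myo-inositol transporter that takes up an osmolyte, starts 52 bases further on the same strand, at chr16:92058322-92087473. The first exon of Slc5a3 lies wholly inside that of Mrps6, so 159 exonic bases belong to both genes, and the rest of Slc5a3 lies in an intron of Mrps6. A further coding gene model, Gm49711, shares 305 exonic bases with Mrps6 and is not in the tables.

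**Figure D1:**
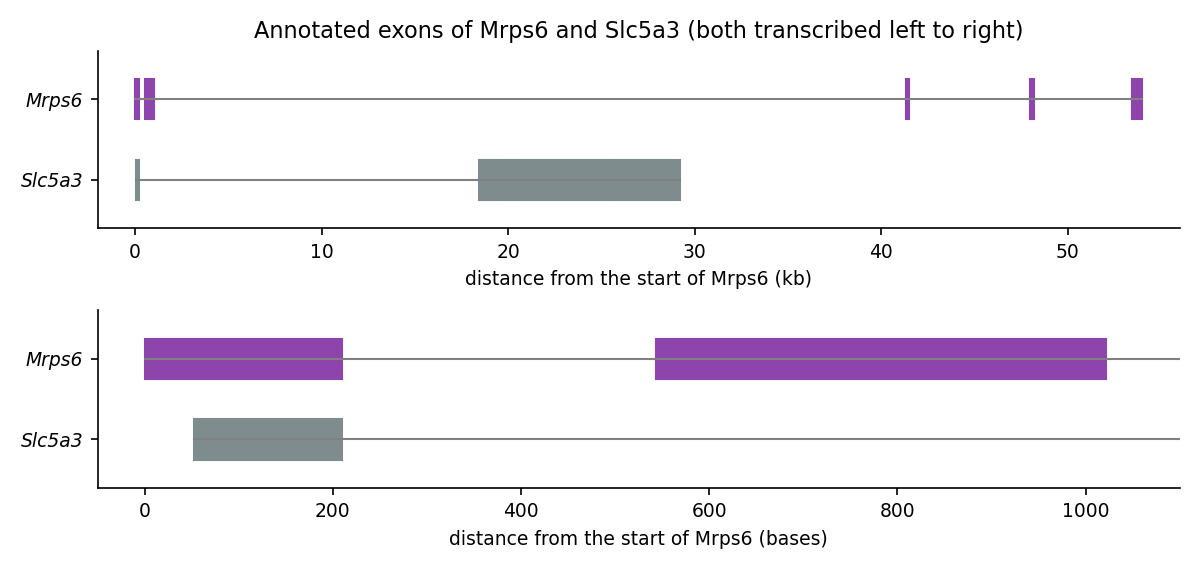
Annotated exons of Mrps6 and Slc5a3 (boxes) along the distance from the start of Mrps6, in kilobases for the whole locus (top) and in bases for its first part (bottom). The 159 shared bases are the whole first exon of Slc5a3, which begins 52 bases after Mrps6.

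Slc5a3 had the higher CPM of the pair and moved in the same comparisons. CPM is not scaled to length, and Slc5a3 has 10913 exonic bases against 1533 for Mrps6. In WT it ran from 6.97 to 7.36 log2 CPM in PI and from 6.46 to 6.63 in CL, a change of 0.66 (SE 0.12, adjusted p = 0.00369). In KO it changed by 0.58 (SE 0.12, adjusted p = 0.00992), from 6.66 ± 0.09 to 7.23 ± 0.13 (SE, n = 6). The sources used here do not say how reads over shared exons were counted, so the part of Slc5a3 in the Mrps6 values was not tested. Because both genes begin at the same place, they also share the sequence upstream, printed here from RefSeq promoters on GRCm38.p6, plus strand, from 184 bases before Mrps6 up to its start (chr16:92058086-92058269), all in lower case since none of the motifs described further on was found in it.
Mrps6 upstream: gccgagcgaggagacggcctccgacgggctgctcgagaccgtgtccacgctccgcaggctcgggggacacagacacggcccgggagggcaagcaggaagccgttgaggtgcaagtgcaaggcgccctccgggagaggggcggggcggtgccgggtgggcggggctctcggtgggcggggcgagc

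Other genes in WT stayed short of the threshold. Mrpl48, a large-subunit protein without a bacterial counterpart, had the smallest p of those that were lower, with values of 5.22 to 5.35 log2 CPM in PI and 5.46 to 5.52 in CL. Its groups did not overlap, and its log2 fold change was -0.21 (SE 0.07, adjusted p = 0.0741). Its exons share 708 bases with Rab6a on the opposite strand, which had a change of -0.21 as well (adjusted p = 0.0434). Mrpl17, the counterpart of bacterial L17, was at 4.38 ± 0.03 in PI and 4.19 ± 0.04 in CL (SE, n = 6), with a change of 0.19 (adjusted p = 0.161). Mrps33, one of the more abundant small-subunit genes per length, had a change of -0.18 (SE 0.08, adjusted p = 0.199).

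The same comparison within KO animals gave a different balance. In KO, 60 of 79 genes were higher in PI, with a median log2 fold change of 0.11 and a range of -0.14 to 0.86. Over all 14338 genes the median was -0.00 and 49.9% were higher. The test called 4 of the 79, Mrps6, Mrpl20, Mrps26 and Mrps2, all higher in PI. That is 5.06%, beside 10% of all genes called (5.11% higher and 4.94% lower), so the share called was no larger than the background. An unadjusted p under 0.05 was found for 17 genes that were higher and 0 that were lower, where 12.1% and 12.7% of all genes had one. Limma on the deposited values, whose spread is too small, called 35 of the 79 where it called 46.5% of all genes, and 32 where it called 44.0% without CL KO replicate 6. Values did not overlap for 25 genes that were higher and 1 that was lower, where the background was 17.1% and 17.2%.

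**Figure D2:**
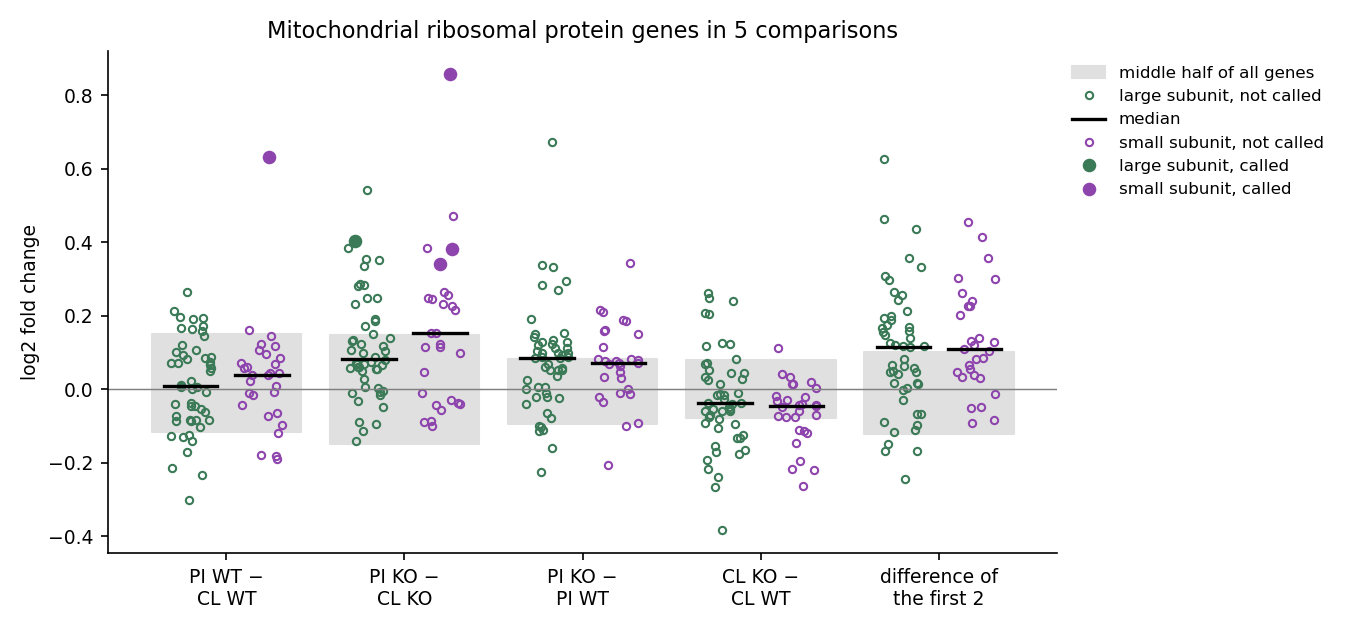
Log2 fold change of each gene (circles, filled where called) in the 4 comparisons and in the difference between the first 2, for the large and the small subunit, with the median as a black line and the interquartile range of all genes as a grey band. Medians of both subunits lie near 0 in WT (0.01 and 0.04) and above 0 in KO (0.08 and 0.15).

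Mrpl20 encodes bL20m, whose bacterial counterpart acts early in the assembly of the large subunit. In KO it ran from 4.95 to 5.09 log2 CPM in PI (median 5.06) and from 4.52 to 4.75 in CL (median 4.63). All PI values were above all CL values, and the log2 fold change was 0.40 (SE 0.10, adjusted p = 0.0188). In WT, by contrast, the values overlapped, with 4.69 to 4.84 in PI and 4.54 to 4.80 in CL and a change of 0.09 (difference of the changes 0.31, SE 0.14, adjusted p = 0.992).

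Mrps26 encodes mS26, a small-subunit protein without a bacterial counterpart. Its KO values were 4.37 to 4.51 log2 CPM in PI (median 4.45) and 3.98 to 4.14 in CL (median 4.06). The groups were apart, with a change of 0.38 (SE 0.10, adjusted p = 0.0241). The WT values overlapped, at 4.19 to 4.29 in PI and 4.15 to 4.29 in CL. A pseudogene with over 95% identity exists for Mrps26, and reads of the 2 copies may have been split.

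Mrps2 encodes uS2m, the counterpart of bacterial S2. It stood at 4.53 to 4.76 log2 CPM in PI KO (median 4.63) and at 4.23 to 4.36 in CL KO (median 4.30). These did not overlap, and the change was 0.34 (SE 0.10, adjusted p = 0.0462). In WT the values were 4.34 to 4.56 in PI and 4.30 to 4.53 in CL, largely the same range.

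**Figure D3:**
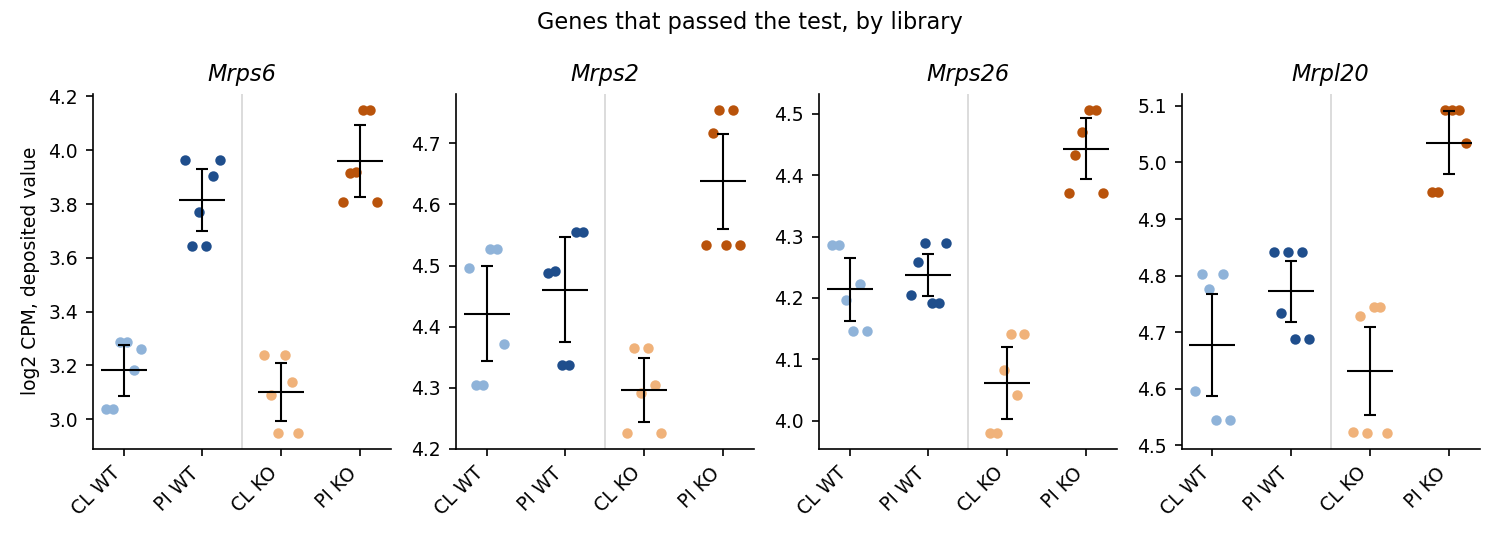
Deposited log2 CPM of the 4 called genes in each library (points) for the 4 groups, with the trimmed mean and its SE (black). Mrps6 is higher in PI in both genotypes, while Mrps2, Mrps26 and Mrpl20 separate in KO and overlap in WT, with an adjusted p = 0.992 for the difference between genotypes in each.

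Since a CL and a PI library came from the same animal, the test was also run on pairs. Pairing left Mrps6 as the only call in WT and raised the calls in KO from 4 to 7, adding Mrpl18 (adjusted p = 0.0450), Mrps7 (adjusted p = 0.0421) and Mrpl32 (adjusted p = 0.0484). The paired test called 15.7% of all genes in WT and 15.02% in KO, so its calls rose over all genes and the 79 stayed below that share. In KO the SE of Mrpl18 was 0.12 paired and 0.10 unpaired, that of Mrps7 0.13 in both, and that of Mrps6 0.14 and 0.15. Mrps7 and the KO value of Mrpl32 fall outside the naming rule and are given because the paired test called them. Without a trend of the prior variance, 2 calls were left in KO, Mrps6 and Mrps26, as Mrpl20 moved to an adjusted p = 0.0549 and Mrps2 to an adjusted p = 0.0828, while the share of all genes called fell to 5.15%.

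Several KO genes lay just beyond the threshold. Mrpl18, the counterpart of bacterial L18, a 5S rRNA binding protein, ran from 4.21 to 4.37 log2 CPM in PI and from 3.87 to 4.05 in CL, with a change of 0.34 (SE 0.10, adjusted p = 0.0512). It shares 141 exonic bases with Tcp1, a chaperonin subunit gene on the opposite strand, which had a change of 0.24 in KO (adjusted p = 0.0407). Mrps16 had a change of 0.47 (SE 0.14, adjusted p = 0.0575) at a low level, 3.06 ± 0.10 in PI and 2.59 ± 0.07 in CL (SE, n = 6). Mrpl22, whose bacterial counterpart lines the exit tunnel for the new peptide, had a change of 0.38 (SE 0.12, adjusted p = 0.0580). Mrpl54, a large-subunit protein without a bacterial counterpart, had the largest change among the Mrpl genes, 0.54 (SE 0.18, adjusted p = 0.0721), from 2.25 ± 0.14 to 2.79 ± 0.10 (SE, n = 6). Of the 19 genes that were lower in KO, Mrpl58 had the smallest p. Mrpl58 is the peptidyl-tRNA hydrolase Ict1 that became part of the large subunit, and its change was -0.14 (SE 0.09, adjusted p = 0.363).

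The subunits were set side by side. In KO, 40 of 50 large-subunit genes were higher in PI (median 0.08, 1 called) and 20 of 29 small-subunit genes (median 0.15, 3 called). In WT the counts were 28 of 50 (median 0.01, 0 called, 2 with an unadjusted p under 0.05) and 18 of 29 (median 0.04, 1 called). The shares called in KO were 2% of the large and 10.3% of the small subunit, beside 10% of all genes. In WT they were 0% and 3.45%, beside 10.6% of all genes. An unadjusted p under 0.05 was found in WT for 4% and 6.90%, beside 23.9% of all genes. The large-subunit median in WT was -0.00 when the comparison was centred on its median gene, so it has no stable sign. The difference between the subunits was not tested, and the median SE of a single gene in KO was 0.12. Counting Mrps30 and Mrps18a as large-subunit proteins, as the solved structures place them, and leaving out the pseudogene Mrpl23-ps1 and Mrps36, which belongs to the 2-oxoglutarate dehydrogenase complex, gave medians of 0.09 and 0.14 in KO. The 44 proteins classed here as having a bacterial counterpart had a KO median of 0.09 (35 higher), and the 33 classed as without one had 0.11 (23 higher). The classes were assigned by list, and Mrps28, with a KO change of 0.38, was counted among the 33.

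Library by library, the median over the 79 genes was 4.10 to 4.21 log2 CPM in the PI KO libraries and 3.90 to 4.03 in CL KO, without overlap. In PI WT it was 3.99 to 4.15 and in CL WT 3.98 to 4.08, with overlap. All per-library medians and sums given here come from deposited values, most of them set to group quartiles. CL KO replicate 6 held a middle value not set to a quartile in 4 of the 79 genes, and PI WT replicate 4 in 12. The spread between libraries is thus understated, which favours a lack of overlap, so that lack is no test of a difference. The median over all genes of a library moved far less, from 4.24 to 4.26 in PI KO and from 4.21 to 4.23 in CL KO. Yet these ranges did not overlap either, and in WT the median over all genes was also higher in PI without overlap. A lack of overlap is therefore not particular to the 79 genes or to KO. The summed level of the 79 genes gave the same order, 1444 to 1480 CPM in PI KO, 1321 to 1368 in CL KO, 1344 to 1429 in PI WT and 1368 to 1419 in CL WT. The difference between the large-subunit and the small-subunit median overlapped between PI and CL, -0.18 to 0.02 against -0.12 to 0.01 in KO and -0.21 to -0.08 against -0.16 to -0.07 in WT.

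**Figure D4:**
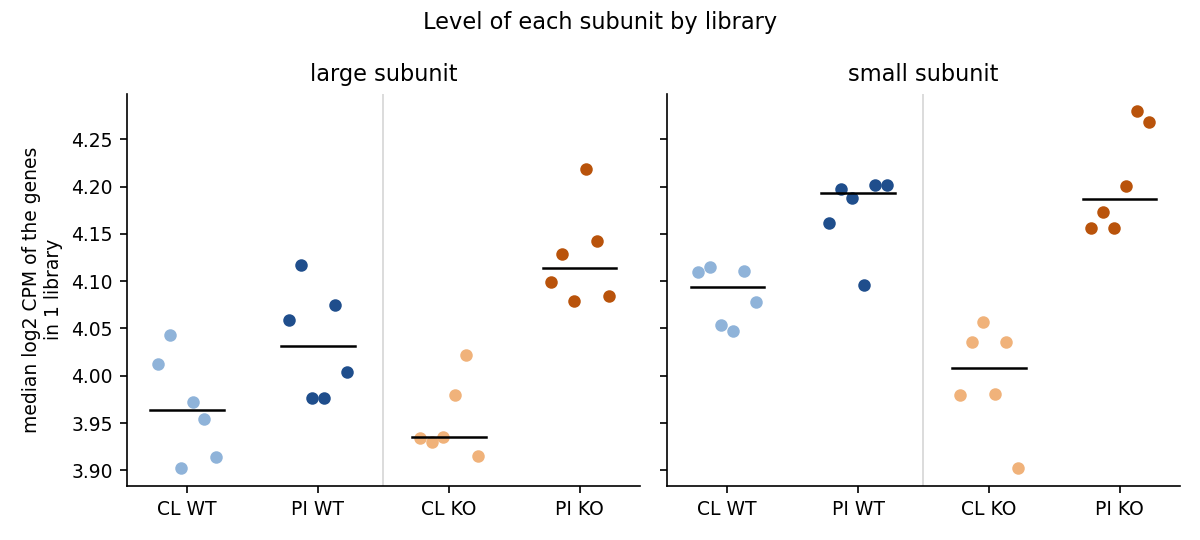
Median log2 CPM of the large-subunit genes (left) and of the small-subunit genes (right) in each library (points), with the group median as a line. In the deposited values, whose spread is understated, PI KO libraries lie above all CL KO libraries for both subunits, while PI WT and CL WT overlap for both.

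Gene by gene, the 2 genotypes use different animals and can be compared directly. Of the 79 genes, 40 had higher values in PI for WT and KO alike, 20 were higher in KO and lower in WT, 6 were higher in WT and lower in KO, and 13 were lower in both.

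**Figure D5:**
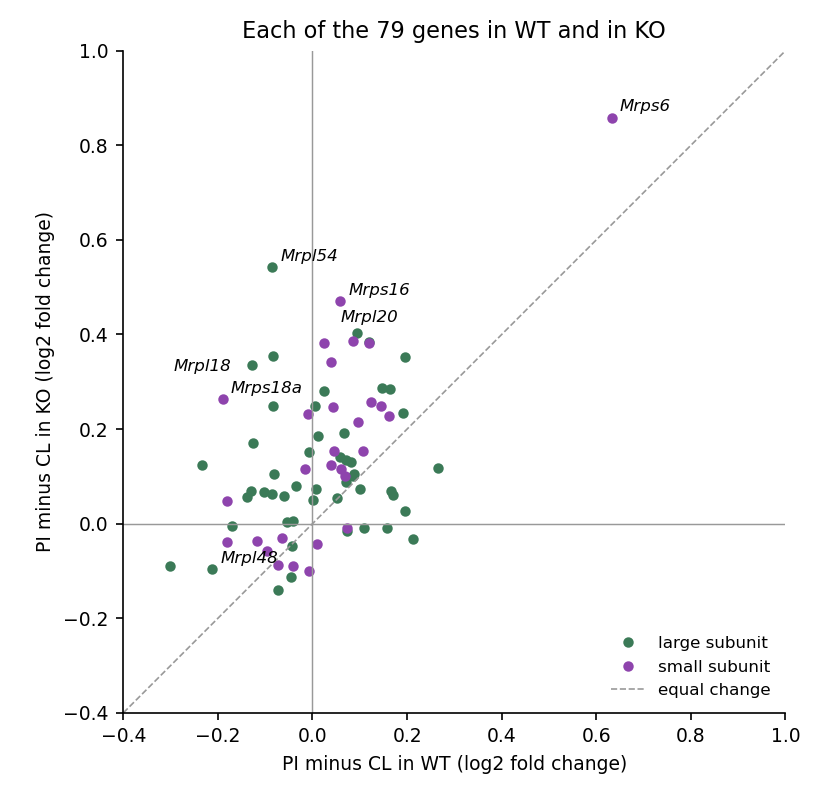
Log2 fold change of PI minus CL in WT (x axis) and in KO (y axis) for each of the 79 genes, coloured by subunit, with a dashed line of equal change. Most points lie above that line, since 62 of 79 genes have a larger change in KO, and Mrps6 stands apart at 0.63 and 0.86.

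Whether the change from CL to PI depended on the genotype was tested as the difference between the 2 changes. That difference was above 0 for 62 of the 79 genes, with a median of 0.11 (0.12 large, 0.11 small) and a range of -0.24 to 0.63. Over all 14211 genes the median was -0.00, and 49.9% were above 0. The trimmed-mean test called 0 of the 79, as it called 0.00% of all genes. An unadjusted p under 0.05 was found for 7 of the 79, all with a larger change in KO, where 4.55% of all genes had one (2% in this direction and 2.55% in the other). Limma on the deposited values called 14, where it called 13.7% of all genes.

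Mrpl18 had the smallest p for that difference. Its trimmed mean went from 4.14 ± 0.03 in CL to 4.01 ± 0.03 in PI within WT, and from 3.96 ± 0.06 to 4.30 ± 0.05 within KO (SE, n = 6). The deposited values did not overlap between PI and CL in either genotype, and the difference was 0.46 (SE 0.12, adjusted p = 0.992). Mrps18a, which sits in the large subunit in spite of its symbol, had changes of opposite sign as well, with -0.19 in WT and 0.26 in KO and a difference of 0.45 (SE 0.15, adjusted p = 0.992). Mrps26 followed with 0.36 (SE 0.12, adjusted p = 0.992). In the other direction the largest was Mrpl40, at -0.24 (SE 0.17, adjusted p = 0.992).

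The comparisons of genotypes asked what the knockout changed within PI and within CL. They use the same libraries as the comparisons above and are no separate evidence for them. In PI, 59 of 79 genes were higher in KO, with a median log2 fold change of 0.08 (0.08 large, 0.07 small), while over all 14452 genes 48.5% were higher. None passed the trimmed-mean test (0 called, where 0.0208% of all genes were called, 0.00692% higher and 0.0138% lower). An unadjusted p under 0.05 was found for 5 genes, all higher in KO, where 5.75% of all genes had one (2.80% higher and 2.95% lower), and limma on the deposited values called 16, where it called 16.5% of all genes. Values did not overlap for 12 genes that were higher and 3 that were lower, where the background was 6.94% and 7.19%.

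Mrpl54 had the smallest p in PI. It ran from 2.69 to 2.97 log2 CPM in PI KO and from 1.95 to 2.46 in PI WT, which did not overlap, and its change was 0.67 (SE 0.20, adjusted p = 0.780). Mrpl18 had 4.25 to 4.40 in PI KO and 3.99 to 4.07 in PI WT, a change of 0.29 (SE 0.09, adjusted p = 0.826). Mrpl20 had 4.98 to 5.13 and 4.72 to 4.87, a change of 0.27 (SE 0.09, adjusted p = 0.854). Mrps6 did not differ beyond its error, with 3.99 ± 0.14 in PI KO and 3.84 ± 0.12 in PI WT (SE, n = 6).

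In CL the direction was the other way, with 25 of 79 genes higher in KO and 54 lower and a median of -0.04 (-0.04 large, -0.05 small), beside 49.2% higher over all 14323 genes. The trimmed-mean test called 0 of the 79 (0.0279% of all genes were called, 0.0140% in each direction). An unadjusted p under 0.05 was found for 1 gene that was higher and 5 that were lower, where 5.73% of all genes had one (3.16% higher and 2.56% lower), and limma on the deposited values called 17, where it called 16.1% of all genes. Values did not overlap for 5 genes that were higher and 11 that were lower, where the background was 6.70% and 6.77%.

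Mrpl32, a zinc-binding protein that is trimmed by a mitochondrial protease before it joins the ribosome, had the smallest p in CL. Its values were 3.62 to 3.96 log2 CPM in CL KO and 4.10 to 4.27 in CL WT, with no overlap and a log2 fold change of -0.38 (SE 0.12, adjusted p = 0.688). Mrps18a was at 3.45 ± 0.03 in KO and 3.72 ± 0.07 in WT (SE, n = 6), a change of -0.26 (adjusted p = 0.825). Mrpl42 was the gene with the smallest p among those higher in CL KO, with a change of 0.25 (SE 0.11, adjusted p = 0.848). Mrpl12, whose product forms the flexible stalk of the large subunit, had 0.21 (SE 0.10, adjusted p = 0.878). Mrpl23-ps1, a processed pseudogene that the symbol rule takes in, had 0.24 (SE 0.12, adjusted p = 0.878), and its reads may belong to Mrpl23 in part.

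Shared sequence limits single values in this family. Exons of 33 of the 79 genes overlap those of another gene, 23 of them a coding gene, and 18 have a pseudogene at 95% identity or more over at least 200 bases. The 46 genes without exon overlap had medians of 0.04 in WT and 0.12 in KO, with 0 and 2 called, the 2 being Mrpl20 and Mrps2. Nr2c2, a nuclear receptor gene sharing 4590 exonic bases with Mrps25 on the opposite strand, had changes of -0.26 in WT (adjusted p = 0.0129) and -0.21 in KO (adjusted p = 0.0189), whereas Mrps25 had -0.02 and 0.11. Mrpl46 and Mrps11 overlap each other by 173 bases.

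Transcript length moved with the result. Among other coding genes with a main transcript under 1000 bases, the KO median of PI minus CL was 0.14 and 73.8% were higher, while among those of 4000 bases and over it was -0.04 and 41.6%. The 25 mitochondrial ribosomal protein genes under 1000 bases had a KO median of 0.19, and the 9 of 4000 bases and over had 0.11. In PI KO against PI WT the other short genes had a median of 0.10 (72.9% higher) and the 25 short ribosomal genes 0.12. In WT the other short genes had 0.05 and the 25 had 0.07. The part of length in the KO shift was not tested.

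Related gene groups, from lists written with earlier results of these data known, place the family among its neighbours. Over all genes, the test called 10.6% in WT and 10% in KO, and 23.9% and 24.9% had an unadjusted p under 0.05. Of the 76 cytosolic ribosomal proteins, 68 were higher in PI in WT (median 0.10, 10 called) and 76 in KO (median 0.24, 38 called, all higher). The 79 respiratory chain and ATP synthase subunits encoded in the nucleus had 20 higher in WT (median -0.06, 2 called, both lower) and 62 in KO (median 0.05, 1 called, higher). The 13 messenger RNAs of the mitochondrial genome, which this ribosome translates, had medians of -0.17 in WT (3 higher) and -0.04 in KO (0 higher), with 0 called in both and unadjusted p under 0.05 for 3 and 1 of them. In PI KO against PI WT the 3 groups had medians of 0.13, 0.13 and 0.19, with 0 called in each and unadjusted p under 0.05 for 33, 23 and 4 genes. Over all genes, 0.0208% were called there and 5.75% had an unadjusted p under 0.05.

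Genes that serve the mitochondrial ribosome were followed as well. Of 7 of its proteins with other symbols, 5 were listed, and all 5 were higher in PI in KO (median 0.28) against 3 in WT (median 0.02). Where 24.9% of all genes in KO and 23.9% in WT had an unadjusted p under 0.05, 4 and 2 of the 5 did, and none was called. Among these, Aurkaip1 had changes of 0.29 in KO (adjusted p = 0.0618) and 0.26 in WT (adjusted p = 0.0963), and Ptcd3 had 0.28 (adjusted p = 0.0618) and 0.16 (adjusted p = 0.176). The 26 listed genes of ribosome assembly and rRNA modification had 16 higher in WT (median 0.05) and 19 in KO (median 0.05). The rRNA methyltransferase gene Mrm1 had changes of opposite sign, 0.58 in WT (adjusted p = 0.0811) and -0.42 in KO (adjusted p = 0.196), and Nsun4 had 0.40 (adjusted p = 0.0797) and 0.27 (adjusted p = 0.237).

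The 15 listed translation factors had 5 higher in WT (median -0.03) and 12 in KO (median 0.09), with the smallest p in KO for the initiation factor gene Mtif3 at 0.39 (adjusted p = 0.0960). The 20 aminoacyl-tRNA synthetase and related genes had 11 higher in each genotype (medians 0.04 and 0.03), with the smallest p in KO for Rars2 at 0.34 (adjusted p = 0.0530). No gene of the assembly, factor and synthetase lists was called in either genotype by the trimmed-mean test, with unadjusted p under 0.05 for 4, 0 and 3 genes in WT and 2, 2 and 1 in KO. Among the 20 genes of mitochondrial transcription and RNA processing, 11 were higher in WT (median 0.03, 0 called, 1 with an unadjusted p under 0.05) and 12 in KO (median 0.04, 1 called). The called gene was Hsd17b10, a subunit of mitochondrial RNase P, with a change of 0.49 in KO (SE 0.14, adjusted p = 0.0466) and 0.38 in WT (SE 0.13, adjusted p = 0.0741). Tfam, which packages and transcribes the mitochondrial genome, had 0.23 in KO (adjusted p = 0.145) and 0.12 in WT (adjusted p = 0.256).

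Cell-type markers moved between PI and CL in both genotypes, and in bulk tissue fewer cells of a type cannot be told apart from less RNA per cell. All 8 neuron markers were listed and summed to 6858 to 7562 CPM in PI KO, 7961 to 8332 in CL KO, 7055 to 7786 in PI WT and 8048 to 8634 in CL WT. The test called 10.6% of all genes in WT and 10% in KO. Of the 8 neuron markers, 3 were higher and 5 lower in PI in WT (2 called, both lower), and 1 was higher and 7 lower in KO (1 called higher and 2 lower). The 2 called lower in each genotype were Snap25 and Syt1, with changes of -0.30 and -0.25 in WT and of -0.31 and -0.27 in KO, and the 1 called higher in KO was Gad2, of inhibitory neurons, at 0.38. The 6 microglia markers summed to 87.3 to 106 CPM in PI KO and 84.1 to 97.4 in CL KO, and to 85.4 to 95.4 in PI WT and 79.6 to 88.4 in CL WT. The sum covers markers that went apart, with 3 called higher and 1 lower in WT and 2 higher and 1 lower in KO, the lower one being P2ry12 at -0.82 and -0.75. The 6 astrocyte markers summed to 6112 to 6795 CPM in PI KO and 7297 to 7798 in CL KO, and to 6288 to 6690 in PI WT and 7275 to 7672 in CL WT, with 1 called higher and 3 lower in WT and 1 higher and 1 lower in KO. Of 8 neutrophil and monocyte markers 1 was listed in these 2 tables, Itgam, which microglia express too, higher in PI by 0.95 in KO and 1.08 in WT, while S100a8, S100a9, Ly6g, Ly6c2, Ccr2, Mpo and Elane were not among their genes. The 6 oligodendrocyte markers summed to 1590 to 1806 CPM in PI KO and 1663 to 2254 in CL KO, and to 1429 to 2039 in PI WT and 2080 to 2272 in CL WT. The 5 endothelial markers summed to 50.9 to 60.7 CPM in PI KO and 41.0 to 52.7 in CL KO, and to 44.0 to 69.9 in PI WT and 34.6 to 57.2 in CL WT. The 4 genes of retained blood summed to 35.4 to 51.4 CPM in PI KO and 10.8 to 61.8 in CL KO, and to 30.01 to 50.4 in PI WT and 12.3 to 52.1 in CL WT. Between the genotypes none of the markers was called, where 0.0208% of all genes were called in PI and 0.0279% in CL. Over all genes, 5.75% in PI and 5.73% in CL had an unadjusted p under 0.05. In PI KO against PI WT, where S100a8 and S100a9 were listed too, the 3 listed neutrophil and monocyte markers were higher in KO (median 0.77, 1 with an unadjusted p under 0.05), 5 of 6 microglia markers were higher (median 0.14), and 4 of 8 neuron markers were (median -0.00). In CL KO against CL WT, 5 of 6 microglia markers were higher (median 0.21), and 0 of 6 oligodendrocyte markers were (median -0.17). The part of cell makeup in the changes of the 79 genes was not tested.

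Promoters were read because 60 of the 79 genes had the same direction in KO, and 69 of the 79 matched a RefSeq entry on GRCm38.p6 (250 bases before to 50 after the start). On either strand, the letters CCGGAAG, the core bound by ETS factors, were found in 25 of 69 (36.2%) against 9.12% of all 27025 promoters and 11.9% of the 17492 of coding genes. The letters AAGATGGCG, the core of YY1, were in 8 of 69 (11.6%) against 1.49% and 1.94%. The palindromic core of NRF1, a regulator of nuclear genes for mitochondria, whose letters are the capitals in the stretches printed next, was in 3 of 69 (4.35%) against 0.977% and 1.32%. The 25 with the ETS core had a KO median of PI minus CL of 0.10 and the 44 without it also 0.10. A match describes these letters only. The stretches around the NRF1 core are shown in the direction of the gene with the core in capitals, for Mrpl32 (chr13:14613090-14613149, minus strand), Mrpl39 (chr16:84735335-84735394, minus strand) and Mrpl9 (chr3:94443283-94443335, plus strand). These cores lie before the RefSeq starts. In GENCODE M21, Mrpl32 begins at 14613165 and Mrpl39 at 84735742, so by that annotation both of their stretches lie inside the gene. In KO all 3 genes were higher in PI, with a median change of 0.29, as were 47 of the 66 without the core, with a median of 0.10. For PI minus CL in WT the medians with and without the core were 0.06 and 0.03. For PI KO against PI WT they were 0.05 and 0.07, and for CL KO against CL WT -0.13 and -0.04. A link of the core to the changes was not tested. The 8 genes with the YY1 core had a KO median of 0.05 and the 61 without it 0.11.
Mrpl32: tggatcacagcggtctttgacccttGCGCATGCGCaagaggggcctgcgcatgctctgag
Mrpl39: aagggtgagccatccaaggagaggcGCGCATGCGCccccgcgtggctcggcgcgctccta
Mrpl9: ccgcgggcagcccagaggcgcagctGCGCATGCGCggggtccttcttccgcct

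The upstream stretches of the other called genes are shown for comparison with Mrps6. They are Mrpl20 (chr4:155802628-155802877), Mrps26 (chr2:130563507-130563741) and Mrps2 (chr2:28467816-28468065), all on the plus strand and ending 1 base before the start. None of the 3 cores lies in these stretches. Mrps26 counts among the 25 promoters with the ETS core, which lies after its start, and its printed stretch overlaps an exon of the antisense RNA gene 4930473A02Rik.
Mrpl20: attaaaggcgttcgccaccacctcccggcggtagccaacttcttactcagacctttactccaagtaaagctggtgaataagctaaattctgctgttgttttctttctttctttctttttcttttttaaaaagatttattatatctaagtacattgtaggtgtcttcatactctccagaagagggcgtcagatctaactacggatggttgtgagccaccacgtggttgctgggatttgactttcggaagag
Mrps26: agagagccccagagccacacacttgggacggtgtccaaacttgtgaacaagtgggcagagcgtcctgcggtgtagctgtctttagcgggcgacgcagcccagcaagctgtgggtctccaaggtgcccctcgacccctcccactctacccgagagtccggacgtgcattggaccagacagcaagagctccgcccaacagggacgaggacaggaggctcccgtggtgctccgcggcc
Mrps2: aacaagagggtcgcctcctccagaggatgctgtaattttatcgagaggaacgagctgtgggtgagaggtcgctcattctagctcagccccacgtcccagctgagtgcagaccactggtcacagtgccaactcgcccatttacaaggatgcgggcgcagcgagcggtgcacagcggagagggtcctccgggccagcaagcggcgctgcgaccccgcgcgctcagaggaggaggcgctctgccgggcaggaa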

How the data were processed

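Ribosome-depleted total RNA was sequenced. The authors deposited log2 CPM values in 4 tables, scaled separately: values of 1 library in its 2 tables lay 0.0256 to 0.0364 log2 apart at the median. The build is mm10 per the submitters' processing notes. Aligner, counting, strand use, annotation and scaling are not given in the sources used here. Values of each group of 6 had been drawn in to its quartiles (100% of genes), and the inner values next to the tied ends were solved from them. Trimmed means were compared with Winsorized errors (6 degrees of freedom, 12 for the difference of changes), moderated by limma 3.58.1 (R 4.3.3) with a trend, two-sided, with Benjamini-Hochberg adjustment over all genes, and tested on simulated data. A count test was not run. Depth comes from low values being whole reads (tolerance 0.03 read), where 72.2% to 90.3% per library were whole. Positions are from GENCODE M21 on GRCm38. No value column was left unused (0). Members, lists and the naming rule were chosen with earlier results of these data known. Genes were named by this rule: every called member, the 8 with the smallest p in each direction for PI against CL, and the 3 for the genotype comparisons and the difference of changes; the text discusses some of them. The correlation of same-numbered CL and PI libraries ran from -0.05 to 0.23 in WT and from -0.09 to 0.27 in KO. In each genotype 3 of 6 correlated best with their own number.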

Additional observations from a re-analysis of the deposited data

Results flagged for a closer look

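In the deposited values, Mrpl18 was lower in PI than in CL for all 6 numbers in WT and higher for all 6 in KO, with a difference between genotypes of 0.46 (adjusted p = 0.992 over all genes). The outer values of each group had been set to its quartiles, so the sign in every animal is not known. Mrps18a had the same reversal, with a difference of 0.45 (adjusted p = 0.992). In the table of PI KO and PI WT, 1 library stood apart in the level of the small subunit: PI WT replicate 4 had the lowest per-library median, 4.12 log2 CPM, with a gap to the next of 0.646 of the group's range. Chance gives such a gap in about 1 in 20 groups of independent normal values, and several medians were checked in every group of every table. These medians come from values partly set to group quartiles, so that rate need not hold for them. In the table of PI WT and CL WT, the small-subunit median of PI WT was not flagged. The same library held a middle value not set to a quartile in 19.4% of genes in the table of PI WT and CL WT, where the mean of its group was 33.3%.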

How the results depend on the processing

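The medians of the 79 genes and of the subunits moved by less than the spread between libraries under each alternative run. Limma on the deposited values, whose spread is understated, called 24 genes in WT and 35 in KO for PI against CL, 16 for PI KO against PI WT, 17 for CL KO against CL WT and 14 for the difference of the changes, where it called 44.6%, 46.5%, 16.5%, 16.1% and 13.7% of all genes. With the replicate block, limma called 22, 33, 10, 14 and 13 in the same order (45.6%, 47.1%, 12.5%, 13.0% and 15.6% of all genes), and the paired trimmed-mean test called 7 in KO (15.02% of all genes); the replicate block changed no other count of the trimmed-mean test. With no trend of the prior variance 2 were called in KO (5.15% of all genes). Members without exon overlap, a choice added after the data were seen, gave 0 calls in WT and 2 in KO (10.6% and 10% of all genes). Also added then, leaving out CL KO replicate 6 was possible only for limma on deposited values, which called 32 in KO, 14 for CL KO against CL WT and 10 for the difference (44.0%, 12.4% and 10.8% of all genes). Same-numbered WT and KO libraries are different animals and share only a number, with correlations from -0.13 to 0.15 in PI and from -0.19 to 0.20 in CL, and 1 and 3 of 6 correlated best with their own number. Of named single genes, 351 results under alternatives were as reported, 81 passed the threshold only there, and 2 no longer passed. Most of the 81 came from limma on the deposited values: 33 without a block, 31 with the replicate block and 15 without CL KO replicate 6. Depth limits genes near the limit of 3 reads, and none of the 79 was there.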
